A study of Danio rerio with 6 samples.

Results

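The genes ell and gtf2e1 encode factors that act on RNA polymerase II, the enzyme that transcribes messenger RNA. They were taken by gene name from a table of expression values in zebrafish embryos, in which they are 2 of 99 genes. Both were picked because their levels were higher in mutant embryos than in wild type. The genotype differences below are therefore descriptions of that choice, without a test, and support nothing beyond it. The mutant genotype was MZdgcr8, embryos without Dgcr8 from either source, the egg or their own genome, and the comparison was with wild-type embryos. Both groups were of the AB strain and were collected at 4.5 hours post fertilization (hpf), when the blastoderm covers 30% of the yolk. Each genotype had 3 libraries, numbered 1 to 3, each from 50 pooled whole embryos, and no treatment is named. The labels name neither the dgcr8 allele nor the clutches, so the spread between libraries may be technical.

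Dgcr8 is the RNA-binding partner of the nuclease Drosha, and together they make the first cut in most microRNA precursors. Transcription by RNA polymerase II starts at a promoter, where general transcription factors assemble around the enzyme. One of them is TFIIE, made of an alpha and a beta subunit, which helps to bring in and regulate TFIIH, the factor that opens the DNA. The gene gtf2e1 encodes the alpha subunit. After initiation the polymerase can pause, and elongation factors carry it on through the gene. The gene ell encodes one of these, a protein that in mammalian cells suppresses transient pausing and is found in the super elongation complex and the little elongation complex, the second of which serves small nuclear RNA genes. In the early zebrafish embryo transcription starts broadly at the mid-blastula stage, before the stage studied here, and messenger RNAs loaded by the mother are cleared around the same time. A level in whole embryos can thus hold maternal and zygotic transcripts together.

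Levels are given in FPKM, the fragments counted for a gene divided by its length in kilobases and by the mapped fragments of the library, as the authors computed them, which allows genes of different length to be compared. The deepest library, MZdgcr8 replicate 2, had a relative depth of 1.14, and the shallowest, wild type replicate 3, one of 0.798. The background is the 67 genes that averaged 1 FPKM or more over the 6 libraries. The 2 replicate 3 libraries stood apart from the others. Over these 67 genes the correlation of log2(FPKM + 1) between replicates 1 and 2 was 0.996 within each genotype, while with replicate 3 it was at most 0.805 in MZdgcr8 and at most 0.901 in wild type. Values are therefore also given for each replicate number and for replicates 1 and 2 alone. Because dgcr8 itself was not analysed here, its level gave no check of the genotype labels. Of the genes chosen as markers of the blastula, the enveloping layer and the yolk syncytial layer, only krt97 (enveloping layer list) and slc40a1 (yolk syncytial layer list) are in the table, too few to check the labelled tissue.

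The transcript of gtf2e1 (ENSDARG00000000542) was at 48.7, 50.9 and 30.4 FPKM in MZdgcr8 replicates 1, 2 and 3, against 24.6, 25.7 and 22.0 FPKM in wild type replicates 1, 2 and 3. All 3 mutant values lay above all 3 wild-type values, and the gap lay between MZdgcr8 replicate 3 and wild type replicate 2. The means were 43.3 ± 11.2 FPKM in MZdgcr8 and 24.1 ± 1.88 FPKM in wild type (SD, n = 3 each). The coefficient of variation was 25.9% in MZdgcr8 and 7.81% in wild type, where the level was nearly even over the 3 libraries. Groups that did not overlap, with the mutant higher, were found for 6 of the 67 genes (8.96%), and in either direction for 12 (17.9%). As gtf2e1 was picked for this difference, nothing is read from its place among them.

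The transcript of ell (ENSDARG00000000568) was at 49.2, 52.0 and 11.1 FPKM in MZdgcr8 replicates 1, 2 and 3, against 13.5, 19.8 and 4.86 FPKM in wild type replicates 1, 2 and 3. The groups overlapped, because MZdgcr8 replicate 3 lay below wild type replicates 1 and 2. It was higher than wild type replicate 3, the library of the same number. The means were 37.4 ± 22.8 FPKM in MZdgcr8 and 12.7 ± 7.50 FPKM in wild type (SD, n = 3 each), with coefficients of variation of 61.0% and 58.9%. The level of ell was thus far more variable between libraries of 1 genotype than that of gtf2e1. Its highest value over the 6 libraries was 10.7 times its lowest, the eighth-widest span of the 67 genes, whose median span was 2.94. The span of gtf2e1 was 2.31.

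**Figure D1:**
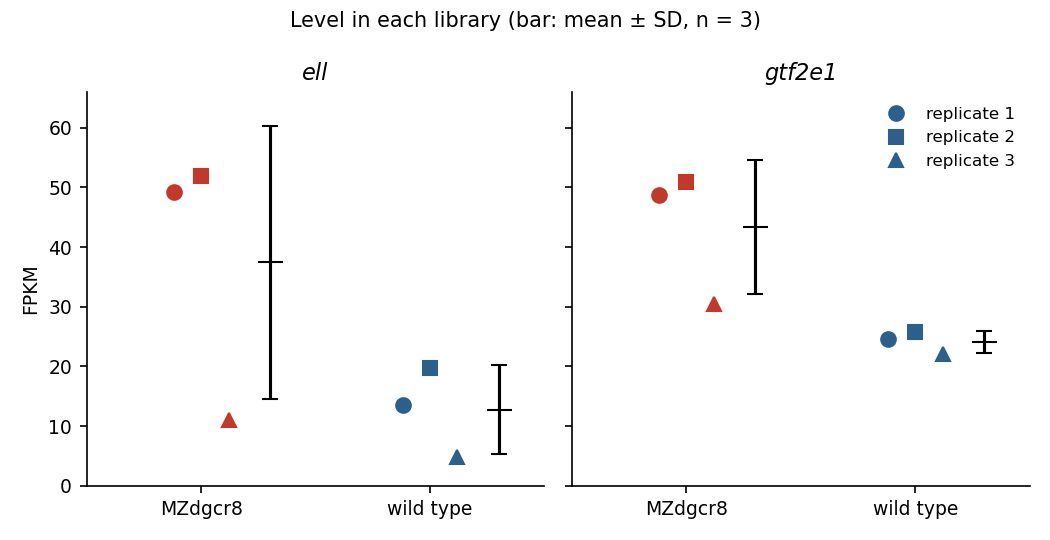
FPKM of ell (left panel) and gtf2e1 (right panel) in each library, with MZdgcr8 in red and wild type in blue; marker shape gives the replicate number, and the black bar is the mean ± SD of 3 libraries. For gtf2e1 all mutant points lie above all wild-type points, while for ell the mutant replicate 3 (11.1 FPKM) lies below wild type replicates 1 and 2 (13.5 and 19.8 FPKM).

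Within a library, the place of each gene among the 99 in the table was also compared between the genotypes. Ordered from the highest FPKM down, ell stood at places 10, 9 and 30 in MZdgcr8 replicates 1, 2 and 3, against places 33, 29 and 36 in wild type. The genotypes thus overlapped for ell, with MZdgcr8 replicate 3 at place 30 and wild type replicate 2 at place 29. The gene gtf2e1 stood at places 11, 11 and 15 in MZdgcr8, against 21, 21 and 22 in wild type. This order does not depend on how libraries are scaled against each other. In MZdgcr8 replicates 1 and 2 both genes were thus among the more abundant transcripts of the table, at nearly the same place. These places follow from the same values that chose the genes.

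The counts behind these levels were large. For ell the deposited counts were 16907, 18963 and 3094 in MZdgcr8 replicates 1, 2 and 3, against 4874, 6604 and 1242 in wild type. For gtf2e1 they were 10088, 11208 and 5121 in MZdgcr8, against 5349, 5173 and 3391 in wild type. At equal FPKM, ell had more counts than gtf2e1, since the length by which the authors divided was 1.66 times longer for ell. The table pairs ell with 2 transcript identifiers and gtf2e1 with 5, but gives 1 value per gene, so isoforms could not be told apart.

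Libraries of the same number were set against each other, a pairing that rests on replicate 3. Over the 67 genes, the 2 replicate 3 libraries deviated together from their genotype means (correlation 0.80). Replicates 1 and 2 were not matched by number. Deviations of MZdgcr8 replicate 1 correlated at 0.77 with wild type replicate 1 and at 0.82 with wild type replicate 2. Within these pairs ell was 3.64, 2.62 and 2.28 times as high in MZdgcr8 as in wild type for replicates 1, 2 and 3. For gtf2e1 the ratios of MZdgcr8 to wild type were 1.98, 1.98 and 1.38. Both genes were higher in the mutant in 3 of 3 pairs, as were 13 of the 67 genes (19.4%), while 29 (43.3%) were lower in 3 of 3. By the mean difference in log2(FPKM + 1) over the pairs, ell was the fourth and gtf2e1 the seventh of these 13.

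On the log2 scale the pair ratios averaged 1.48 ± 0.35 for ell and 0.81 ± 0.30 for gtf2e1 (SD, n = 3 pairs), which are geometric mean ratios of 2.79 and 1.76. The ratio was smallest in replicate 3 for both genes. There it lay 0.44 below the mean of pairs 1 and 2 on the log2 scale for ell, and 0.52 below it for gtf2e1. As replicates 1 and 2 were not matched by number, the ratios of pairs 1 and 2, and the SDs, depend on the numbering. With the numbers as given, ratios of gtf2e1 in pairs 1 and 2 were almost the same. Those of ell differed, which came mostly from wild type. Replicate 2 was 1.06 times replicate 1 for ell in MZdgcr8, against 1.46 times in wild type. That wild-type gap was the third largest of the 67 genes, whose median gap was 0.07 on the log2(FPKM + 1) scale, against 0.52 for ell.

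**Figure D2:**
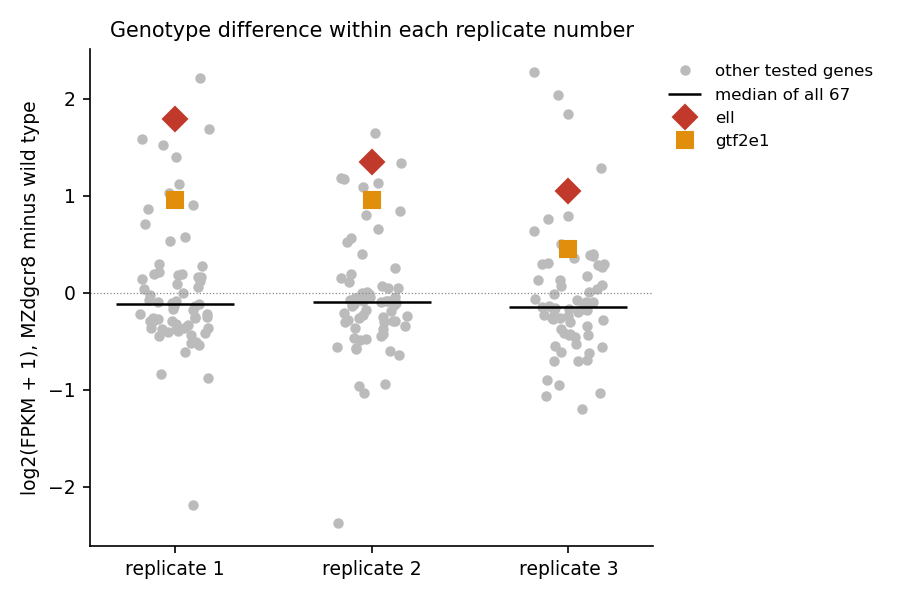
Difference in log2(FPKM + 1) between MZdgcr8 and wild type within each replicate number, for ell (red diamonds), gtf2e1 (orange squares) and the other tested genes (grey, spread sideways at random); black lines are medians over all 67 genes. Both genes lie above the median in each pair, with ell at places 2, 2 and 5 from the top and gtf2e1 at places 9, 8 and 10 in replicates 1, 2 and 3.

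The whole table was fitted with edgeR's quasi-likelihood test, from which only sizes and errors are given for these genes, because they were picked on the same contrast. The fitted log2 change, MZdgcr8 over wild type, was 1.56 ± 0.73 (SE) for ell, a 2.94-fold higher level, and 0.85 ± 0.32 for gtf2e1, a 1.80-fold higher level. The median change over the 67 genes was -0.16. With the replicate number as a block the changes were 1.48 ± 0.18 for ell and 0.81 ± 0.16 for gtf2e1. In replicates 1 and 2 alone the changes were 1.60 ± 0.17 for ell and 0.98 ± 0.07 for gtf2e1. Over the whole table, edgeR called 0 of 67 genes without the block (0%), with 5 at an unadjusted p under 0.05, and 5 of 67 with it (7.46%), all 5 higher in MZdgcr8. That split depended on the scaling, since the blocked fit with library medians set equal called 42 genes (62.7%), 6 higher and 36 lower. That scaling moved the median change over the 67 genes from -0.19 to -0.61 in the blocked fit. In replicates 1 and 2 alone 43 were called (64.2%), 16 higher and 27 lower. Those replicates cannot be told from technical repeats, so the smaller errors and the calls from them alone may reflect technical spread only. DESeq2 and limma called 0 without the block, with 7 and 6 genes at an unadjusted p under 0.05.

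Genotype and replicate number took different shares of the variation of the 2 genes. Of the sum of squares of log2(FPKM + 1) over the 6 libraries, genotype held 38.3% for ell and replicate number 59.9%, with 1.85% left over. For gtf2e1, genotype held 72.9%, replicate number 20.3% and the remainder 6.77%. The medians over the 67 genes were 13.5% for genotype and 77.2% for replicate number. The shares of a gene add up to the whole and both genes were picked for their genotype difference, so nothing is read from a replicate share below the median.

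The difference between replicate 3 and the other replicates was not named in the choice of the genes, but the same values entered that choice. The size of this difference was unlike in ell and gtf2e1. For ell, the MZdgcr8 level was 11.1 FPKM in replicate 3, against a mean of 50.6 FPKM in replicates 1 and 2, a 4.56-fold lower level. In wild type the level was 4.86 FPKM in replicate 3 and 16.7 FPKM in the mean of the others, a 3.43-fold lower level. Counted from the lowest difference in log2(FPKM + 1), ell was at place 4 of 67 genes in MZdgcr8 and at place 10 in wild type. The transcript of gtf2e1 was at 30.4 FPKM in MZdgcr8 replicate 3, against a mean of 49.8 FPKM in replicates 1 and 2, 1.64-fold lower. In wild type it stood at 22.0 FPKM in replicate 3 and averaged 25.2 FPKM in the others, 1.14-fold lower.

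Most of the table was lower in replicate 3 as well. In MZdgcr8, 49 of 67 genes were lower there, with a median difference of -0.67 in log2(FPKM + 1), and in wild type 51 genes were lower, with a median of -0.55. On this scale gtf2e1 differed by -0.69 in MZdgcr8, near that median, and by -0.18 in wild type. For ell the differences were -2.09 and -1.57. Replicate 3 holds 1 library per genotype, and the labels name no batch, so no test of this difference was made. In whole embryos, fewer cells that hold a transcript and less of it per cell cannot be told apart.

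Levels of the 2 genes relative to each other differed between libraries. The ratio of ell to gtf2e1 FPKM was 1.01 and 1.02 in MZdgcr8 replicates 1 and 2, so that both transcripts stood at the same level, and 0.365 in MZdgcr8 replicate 3. In wild type replicates 1, 2 and 3 it was 0.55, 0.77 and 0.221. In every wild-type library, and in MZdgcr8 replicate 3, gtf2e1 was thus the more abundant of the pair. This ratio is free of any scaling factor that a library applies to all genes alike.

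The ratio averaged 0.799 ± 0.376 in MZdgcr8 and 0.514 ± 0.277 in wild type (SD, n = 3 each), a difference of about the size of the spread within each genotype. It was higher in the mutant in 3 of 3 pairs, by 1.84, 1.33 and 1.65 times. Over the 6 libraries it spanned 4.62 times from lowest to highest, and most of that span lay within genotypes, at 2.80 times in MZdgcr8 and 3.49 times in wild type. The excess of ell over gtf2e1 in the genotype difference was 0.61 on the log2(FPKM + 1) scale. It was 0.14 without wild type replicate 3 and 1.07 without MZdgcr8 replicate 3, but 0.61 in replicates 1 and 2 alone. Leaving out 1 of the other libraries shifted it too. It was 0.38 without MZdgcr8 replicate 1 and 0.37 without MZdgcr8 replicate 2. Without wild type replicate 1 it was 0.72, and without wild type replicate 2 it was 0.95. The size of the excess thus depended on which library was left out, and was unchanged when replicate 3 was left out of both genotypes.

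**Figure D3:**
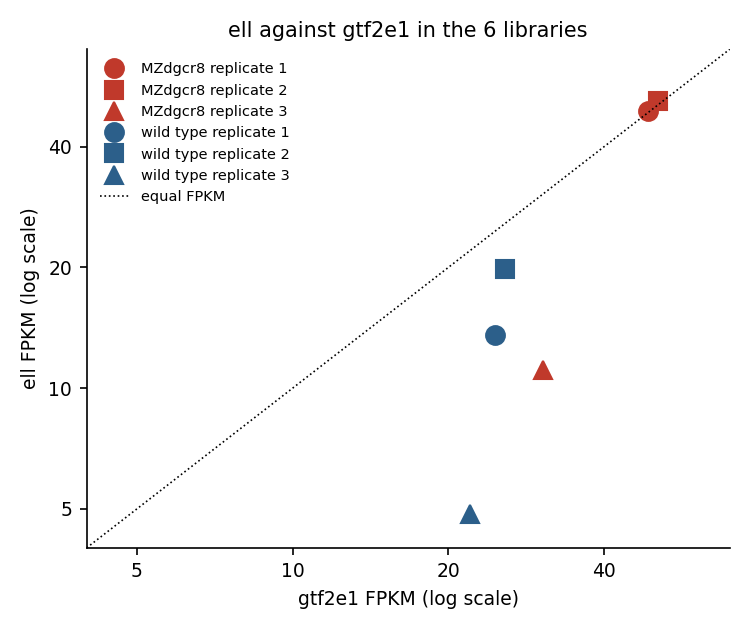
FPKM of ell (vertical) against gtf2e1 (horizontal) in the 6 libraries, both on log scales, with MZdgcr8 in red and wild type in blue; the dotted line marks equal levels. MZdgcr8 replicates 1 and 2 lie on the line (ratios of 1.01 and 1.02), and the other libraries lie below it, the replicate 3 libraries farthest (0.365 in MZdgcr8 and 0.221 in wild type).

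For 13 of the 15 pairs that can be formed from the 6 libraries, both genes were higher in the same library. The exceptions were MZdgcr8 replicate 3 set against wild type replicates 1 and 2, where gtf2e1 was higher in the mutant and ell in wild type. Within a genotype, all pairs of libraries had the same order for both genes. Most of these pairs set replicate 3 against another replicate. Lower in replicate 3 than in the mean of replicates 1 and 2 were 49 of 67 genes in MZdgcr8 and 51 in wild type. Between replicates 1 and 2, gtf2e1 differed by only 1.05 times in MZdgcr8 and 1.04 times in wild type, so nothing is read from this order. Between genotypes, a match follows in part from the choice of 2 genes higher in the mutant. Other genes matched the order of ell as often. Of the 66 genes other than ell, 13 (gtf2e1 included) had its order in at least 13 pairs of libraries, and the median was 10. As gtf2e1 was picked for its rise, nothing is read from its count against that median. Because the libraries fall into clusters by replicate number and genotype, no correlation over the 6 libraries is given.

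The likeness of 2 genes was also measured as the root mean square distance between their log2(FPKM + 1) profiles, each centred on its own mean over the 6 libraries. The distance from ell to gtf2e1 was 0.73, against a median of 1.01 from ell to the 66 other genes, and gtf2e1 was the 14th nearest to ell. Seen from gtf2e1, ell was the 48th nearest of 66, and the median distance was 0.65. Several genes thus lay nearer to each of the 2 than they lay to each other. A shared rise in the mutant, for which both were picked, shortens the distance between them, so nothing is read from either rank. The rank of gtf2e1 was 7 in replicates 1 and 2 alone, and ran from 9 to 18 when 1 library was left out.

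The genes nearest to ell included ptpn4a and ptpn4b, which encode paralogous tyrosine phosphatases and may share reads, at distances of 0.26 and 0.33. They also included thraa, which encodes a thyroid hormone receptor, at 0.45, and dcaf8, which encodes a substrate receptor of cullin ubiquitin ligases, at 0.50. The closest, ptpn4a, was at 15.2, 14.7 and 3.05 FPKM in MZdgcr8 replicates 1, 2 and 3, against 4.05, 6.42 and 2.06 FPKM in wild type. Like ell, it was high in MZdgcr8 replicates 1 and 2, higher in wild type replicate 2 than in replicate 1, and low in both replicate 3 libraries. The profile of thraa parted from that of ell in MZdgcr8 replicate 3, where it stood at 0.392 FPKM, and at 0.563 FPKM in wild type replicate 3.

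Nearest to gtf2e1 was TMEM267, a gene for a predicted transmembrane protein, at a distance of 0.26. It was at 5.27, 4.73 and 4.09 FPKM in MZdgcr8 replicates 1, 2 and 3, against 2.08, 2.20 and 3.17 FPKM in wild type. As with gtf2e1, the mutant values all lay above the wild-type values, but wild type replicate 3 was the highest of its group where gtf2e1 had its lowest value. Next came dcaf8 at 0.28, tomm34, which encodes a cytosolic chaperone adaptor of mitochondrial protein import, at 0.35, the cell polarity gene scrib at 0.38, and nr4a1, which encodes an orphan nuclear receptor, at 0.39. The distance is small for scrib because it hardly varied, at 31.0, 29.5 and 23.2 FPKM in MZdgcr8 and 28.0, 29.3 and 21.9 FPKM in wild type. That of nr4a1 is small partly because its levels, at most 3.74 FPKM, are compressed by the addition of 1. Only dcaf8 was among the 5 nearest of both ell and gtf2e1.

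**Figure D4:**
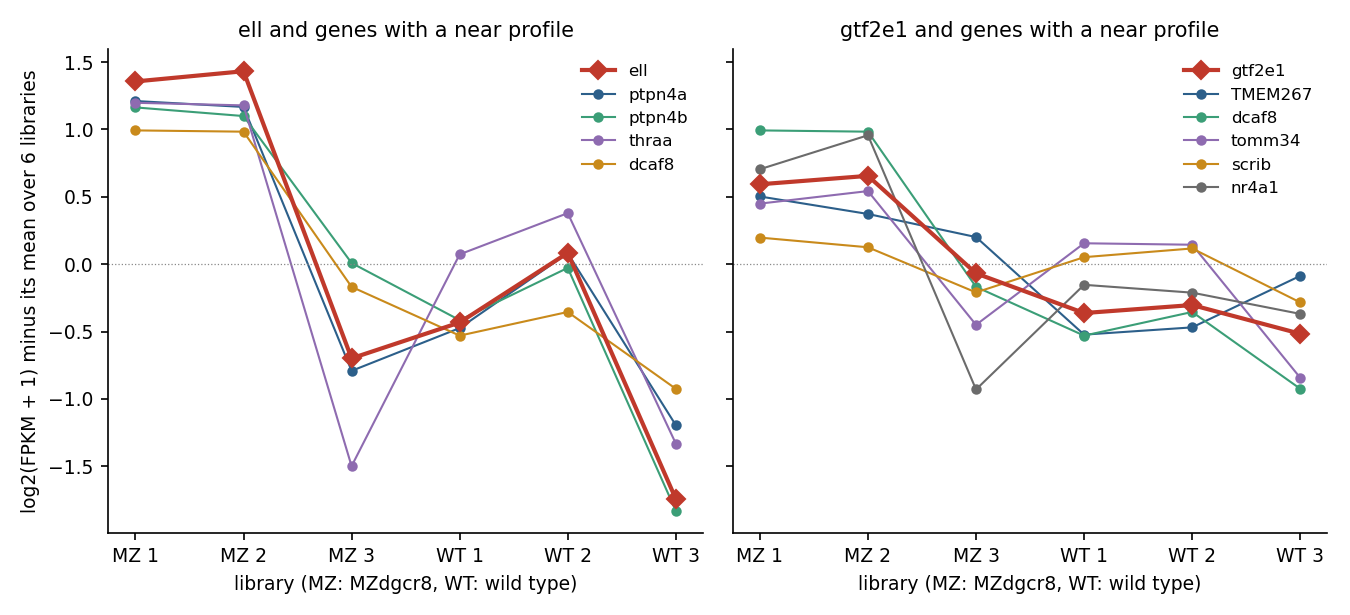
Centred profiles of log2(FPKM + 1) over the 6 libraries for ell with 4 of its nearest genes (left) and gtf2e1 with its 5 nearest (right); the vertical axis is each gene's value minus its own mean. The lines of ell and ptpn4a (distance 0.26) lie close together but part in wild type replicate 3, where that of ell is lower. Those around gtf2e1 are flatter.

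The remaining RNA polymerase II machinery was hardly covered. Of 149 genes on lists of polymerase subunits, general transcription factors, elongation factors, and Mediator and Integrator subunits, ell and gtf2e1 alone are in the table. Other TFIIE, TFIIH or ELL-complex members were not analysed here, and no statement on these complexes can be made. A wider group was formed from the table's own Gene Ontology terms, after its values had been seen. Of 12 other genes with a term on transcription, 10 reached the expression minimum. Among these 10, 1 was higher in MZdgcr8 in 3 of 3 pairs and 4 were lower in 3 of 3, where all 67 genes held 13 (19.4%) and 29 (43.3%). The median difference was -0.12 in log2(FPKM + 1) over the 10 genes and -0.16 over all 67.

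A neighbour of gtf2e1 in the genome could be compared. In the RefSeq annotation of the zebrafish assembly GRCz12tu, lcmt2, which encodes a tRNA-modifying enzyme, is the next protein-coding gene to gtf2e1, and the annotated spans do not overlap. The transcript of lcmt2 was at 3.57, 3.78 and 2.44 FPKM in MZdgcr8 replicates 1, 2 and 3, against 4.89, 6.04 and 2.78 FPKM in wild type. It was lower in the mutant in 3 of 3 pairs, as were 29 of the 67 genes (43.3%). Its fitted log2 change was -0.49 ± 0.44 (SE), in the edgeR fit without the block. As that fit called 0 of the 67 genes, nothing is read from lcmt2 not being called. The protein-coding neighbours of ell there, dot1l and fkbp8, were not analysed here.

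Of the microRNA pathway list the table holds dicer1, which encodes the nuclease that acts after Dgcr8 and Drosha. It was at 35.5, 33.2 and 26.0 FPKM in MZdgcr8 replicates 1, 2 and 3, against 12.8, 14.0 and 4.57 FPKM in wild type. The enveloping layer gene krt97 was at 31.1, 26.9 and 331 FPKM in MZdgcr8, against 145, 144 and 302 FPKM in wild type. In both genotypes it was highest in replicate 3, where ell was lowest. The yolk syncytial layer gene slc40a1 was at most 0.371 FPKM in every library. The part of cell composition or embryo stage in the levels of ell and gtf2e1 was not tested.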

How the data were processed

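Total RNA from whole embryos was sequenced on an Illumina platform, per the labels' protocols. The authors deposited FPKM and whole-number counts per gene and library, per the file headers. The submitters' processing notes list Bowtie 0.12.2, HISAT2 2.0 and StringTie 1.3.0, with no roles. The build named there is a mouse build, while the identifiers are zebrafish Ensembl identifiers, so no coordinates are given. The table lists 99 genes, and its count totals (358811 to 576050) are not library depths. Relative depth came from the ratio of count to FPKM over the 58 genes whose counts all exceed 200 (largest deviation 0.0044 on the log2 scale). None of the 594 count values is 1, 2 or 3, so 1 count may not be 1 read, and no counting intervals are given.

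Counts of genes averaging 1 FPKM or more entered the quasi-likelihood test of edgeR 4.0.16 in R 4.3.3, with two-sided p-values adjusted by the Benjamini-Hochberg method over 67 genes and a threshold of 0.05. Both genes passed the minimum. Each standard error is the log2 change divided by the square root of its F statistic. DESeq2 1.42.0 and limma 3.58.1 were alternatives. The edgeR fit was run on simulated counts that held no replicate effect, so that run does not cover the replicate 3 difference of these data. Over genes, deviations from genotype means correlated at 0.77, 0.76 and 0.80 between MZdgcr8 and wild type replicates 1, 2 and 3, so the numbers were taken to pair the libraries. The pairing rests on replicate 3, since deviations also correlated between MZdgcr8 replicate 1 and wild type replicate 2 (0.82) and between MZdgcr8 replicate 2 and wild type replicate 1 (0.71). If 1 count were 1 read, counts of replicates 1 and 2 would differ by more than counting noise (21.7 in MZdgcr8 and 27.1 in wild type, as chi-square per degree of freedom). This cannot tell separate samples from technical repeats. They were kept as separate samples, as the labels number them.

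The genes, lists and tests were chosen with earlier results of these data known. The naming rule took the 5 nearest profiles to each gene and any listed polymerase gene in the table. A gene that it names is not reported here. The genes krt97, slc40a1, dicer1 and lcmt2 fall outside it.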

Additional observations from a re-analysis of the deposited data

How the results depend on the processing

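Both genes were higher in MZdgcr8 under all 19 alternatives, the log2 change of ell lying between 1.05 and 2.02. That of gtf2e1 was 0.38 with library medians set equal and 0.39 with medians set equal and the replicate block, the last chosen after seeing the data, and otherwise 0.70 to 1.05. Equal medians moved the median of all genes from -0.16 to -0.60. Relative to that median the changes were 1.70 for ell and 0.98 for gtf2e1, against 1.71 and 1.00 at the authors' scaling. A scaling factor shifts all genes of a library nearly alike, so this likeness follows from the method and is no support for either change. Leaving out 1 library gave 1.17 to 2.02 for ell, 0.71 to 1.05 for gtf2e1 and 0.14 to 1.07 for the log2 excess of ell over gtf2e1 (0.61 over all libraries). That excess was also 0.61 in replicates 1 and 2 alone. The count of genes past the threshold in edgeR was 0, and 2 with RLE scaling, 5 with the replicate block, 42 with the block and equal medians (6 higher, 36 lower), 43 in replicates 1 and 2 alone (16 higher, 27 lower) and 0 to 3 with 1 library left out, the 3 without MZdgcr8 replicate 3. The replicate block changed the size of neither gene's difference by more than its error. By profile, gtf2e1 was the 14th nearest gene to ell, and it was at rank 8 with a pseudocount of 5, at 7 in replicates 1 and 2 alone, and at 9 to 18 with 1 library left out. The causes of these shifts were not tested. The 43 calls rest on replicates 1 and 2, which cannot be told from technical repeats. With 3 libraries a genotype and 1 library of replicate 3 in each, the size of both differences remains uncertain.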
